A study of Mus musculus with 6 samples.

Results

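The 50 genes described here carry the Psm prefix of the proteasome: they are the protein-coding rows whose symbol starts with Psma, Psmb, Psmc, Psmd, Psme, Psmf or Psmg followed by a digit. They were found among 54532 gene rows, of which 16844 held enough counts to be tested, and 48 of the 50 were among those tested. Total RNA was sequenced from NIT-1 cells, a mouse insulinoma line of pancreatic beta-cell origin. In the EVs group the cells received hucMSC-EVs for 16 h and then Tm for 8 h. That name is read here as extracellular vesicles shed by mesenchymal stem cells of human umbilical cord. In the ERS group they received PBS for 16 h and then Tm for 8 h. Tm is read here as tunicamycin, which blocks N-linked glycosylation and so causes endoplasmic reticulum stress. One label of the ERS samples describes them as not treated, while their titles and the study design place them in the Tm arm. Each group had 3 samples, no library without Tm was analysed here, and the comparison is therefore between vesicle and PBS pretreatment under Tm. Whether samples of 1 group were grown separately is not stated in the labels, and the spread behind each p-value may then be technical.

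The proteasome degrades proteins tagged with ubiquitin. Its barrel-shaped core particle is built from alpha subunits, which gate the barrel, and beta subunits, which line it and hold the proteolytic sites, while a regulatory cap recognises, unfolds and feeds in the substrates. The cap consists of a base, with a ring of ATPases, and a lid, with the deubiquitinase that removes the ubiquitin chain. Misfolded proteins that are drawn out of the endoplasmic reticulum are degraded by this machine, and dedicated chaperones assemble it.

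The libraries held 28654248 to 32550268 counts each. Of 12 beta-cell markers, 8 were at 0 counts in all 6 libraries, among them Ins2, Pdx1, Nkx6-1 and Iapp, and the summed level of the list was 0.0994 to 0.251 CPM (counts scaled to 1000000 per library) in ERS and 0.248 to 0.552 in EVs. The counts therefore go against the beta-cell identity of the label, and the cells are called here by their label only. The summed level of 7 leukocyte markers was 164 to 179 CPM in ERS and 113 to 117 in EVs, nearly all of it Cd74, with Ptprc at 0 in 5 of the 6 libraries. The called markers of that list went in opposite directions: Cd74 fell from 164 ± 7.64 to 108 ± 1.53 CPM (SD, n = 3, adjusted p = 6.68e-11 by edgeR's quasi-likelihood test), and Cd68 rose from 3.84 ± 0.971 to 5.36 ± 1.13 CPM (adjusted p = 0.0482). The call of Cd68 was lost without ERS replicate 2 (0.272), EVs replicate 2 (0.249) or EVs replicate 3 (0.115). The summed level of 5 stromal markers was 15.5 to 16.7 CPM in ERS and 14.7 to 18.3 in EVs, with Col1a1 lower (3.27 ± 0.362 and 1.91 ± 0.423 CPM, adjusted p = 0.0071) and Col3a1 higher (3.598 ± 0.412 and 6.25 ± 0.81 CPM, adjusted p = 0.000286). In bulk RNA, fewer cells of a type and less RNA per cell cannot be told apart.

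Proteasome genes as a whole took about the same share of the RNA in both groups, while single subunits moved in different directions. Without Psmc3ip, a meiotic recombination gene that only shares the name, they held 0.478% ± 0.012 (SD, n = 3) of all counts in ERS and 0.480% ± 0.0024 in EVs. Of the 48 genes tested, 9 rose and 14 fell in EVs, and 25 did not pass the test (edgeR's quasi-likelihood test, Benjamini-Hochberg adjusted p under 0.05 over all genes tested). Across all genes tested 47.4% passed, 22.6% as higher and 24.7% as lower, a share close to that of the Psm genes. The Psm share was below the 62.8% found among protein-coding genes with a mean level in ERS inside the Psm genes' own range. For 29 of the 48 Psm genes the 3 values in 1 group lay apart from the 3 in the other. Among all genes tested 54.5% did so, and among the protein-coding genes tested 7799 of 12728.

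The changes were small. The log2 fold change (EVs minus ERS) of the 48 genes ranged from -0.44 for Psmg1 to 0.42 for Psma5, with a median of -0.01, beside a median of 0.01 over all genes tested. The median size of the change, disregarding sign, was 0.13 for the Psm genes and 0.28 for all genes tested. No Psm gene moved by more than 0.5 on the log2 scale, whereas 26.8% of all genes tested did. Lowly counted genes scatter more, so the same count was made over the 9355 protein-coding genes whose mean level in ERS lay within the Psm genes' own range of 8.04 to 334 CPM. There the median size was 0.225, 16.3% moved by more than 0.5, and 62.8% passed the test, 26.7% as higher and 36.2% as lower. The lower end of that range is the level of Psmc3ip, and genes were not matched in level within it. The 9355 genes are called genes of like level below. No test of the Psm genes as a list was made.

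**Figure D1:**
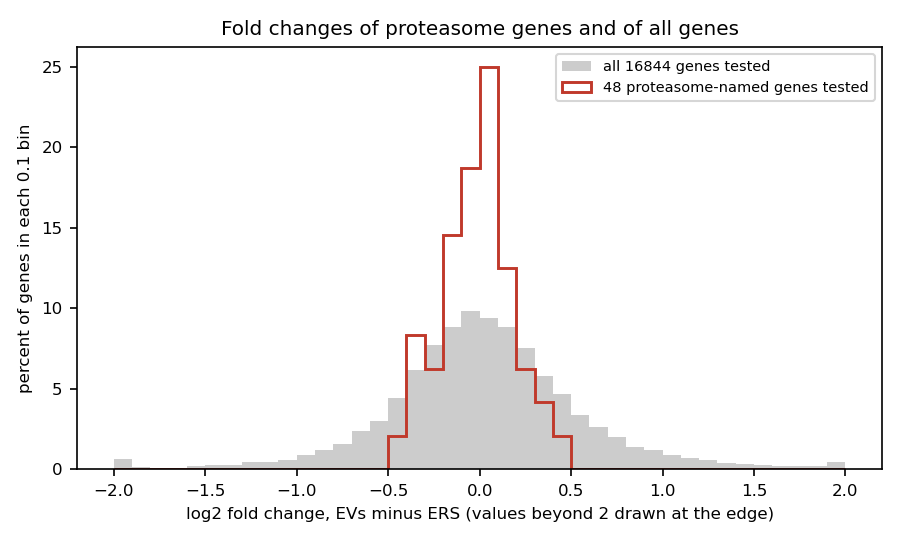
Percent of genes (vertical axis) in each bin of log2 fold change, EVs minus ERS (horizontal axis), for all 16844 genes tested (grey) and the 48 Psm genes tested (red outline), with values beyond the axis drawn at its edge. The Psm genes all lie between -0.44 and 0.42, inside the range that all genes span.

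Most of the calls in the standard core were higher in EVs, and most of those in the cap were lower. Of the 14 alpha and beta subunits of the standard core, 5 rose, 1 fell and 8 did not pass the test, with a median log2 fold change of 0.05, beside 22.6% higher and 24.7% lower among all genes tested. Of the 17 base and lid subunits of the cap with the Psm prefix, 1 rose, 9 fell and 7 did not pass, with a median of -0.14. Among the protein-coding genes of like level 26.7% were higher and 36.2% lower, beside which both counts are to be read. That set reaches down to 8.04 CPM in ERS, while the median level in ERS was 99.4 CPM in the core and 123 in the cap. The summed level of the alpha subunits was 657 ± 21.8 CPM in ERS and 717 ± 9.89 in EVs (SD, n = 3), and that of the beta subunits 718 ± 37.4 and 745 ± 13.8. The base summed to 1449 ± 29.8 CPM in ERS and 1304 ± 24.2 in EVs, and the lid to 1018 ± 29.9 and 950.2 ± 1.98. The libraries of the 2 groups did not overlap in the alpha, base or lid sums, and they overlapped in the beta sum.

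The summed level of the cap divided by that of the core was 1.82, 1.76 and 1.81 in the ERS libraries and 1.54, 1.52 and 1.56 in the EVs libraries. Every ERS library had the higher ratio. CPM are not scaled by gene length, and 17 cap genes were set against 14 core genes. The level of the ratio therefore does not say how many cap transcripts there were per core transcript. Without the most highly counted cap gene, Psmd2, the mean ratio was 1.55 in ERS and 1.32 in EVs, and without Psmc6 it was 1.62 and 1.42. These sums were formed after the results for the single genes were known and carry no test.

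**Figure D2:**
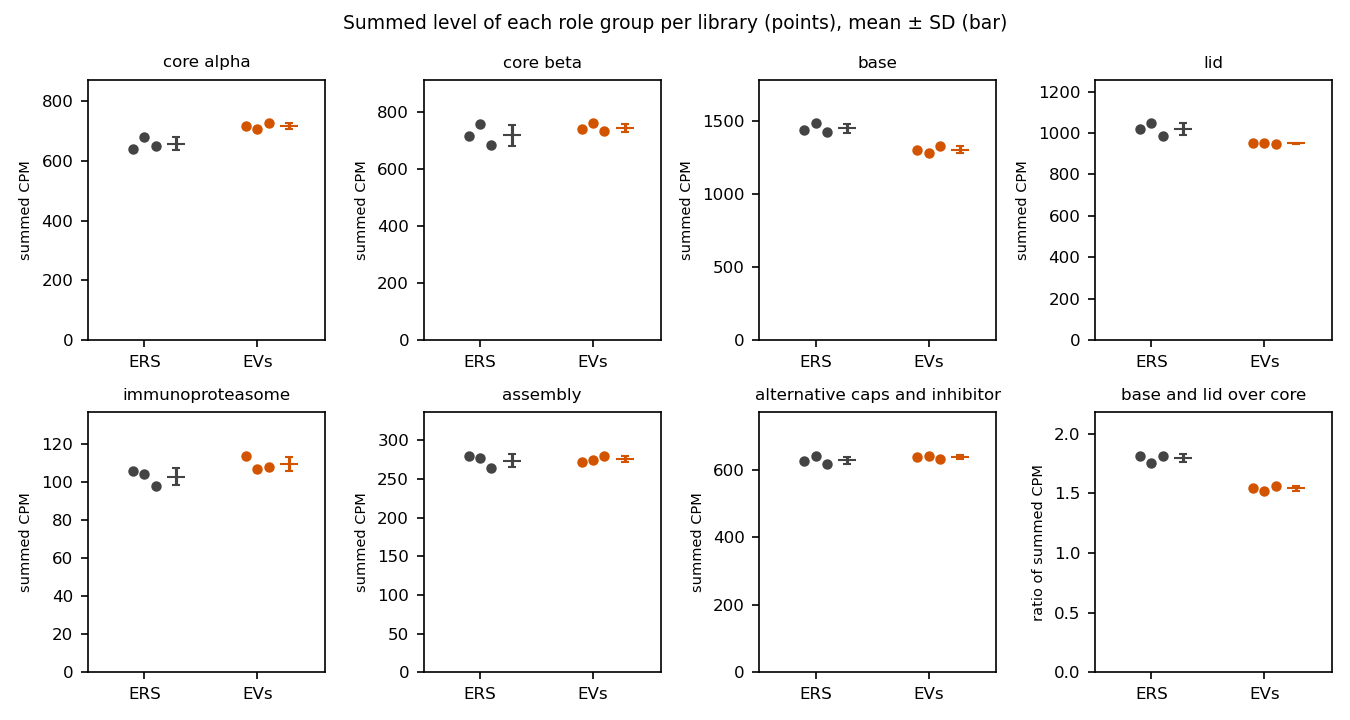
Summed CPM of the genes of each role, 1 panel per role, and the ratio of base and lid to core in the last panel, with points for the libraries and bars for the mean ± SD. The base has means of 1449 CPM in ERS and 1304 in EVs, the lid 1018 and 950.2, and the alpha subunits 657 and 717.

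**Figure D3:**
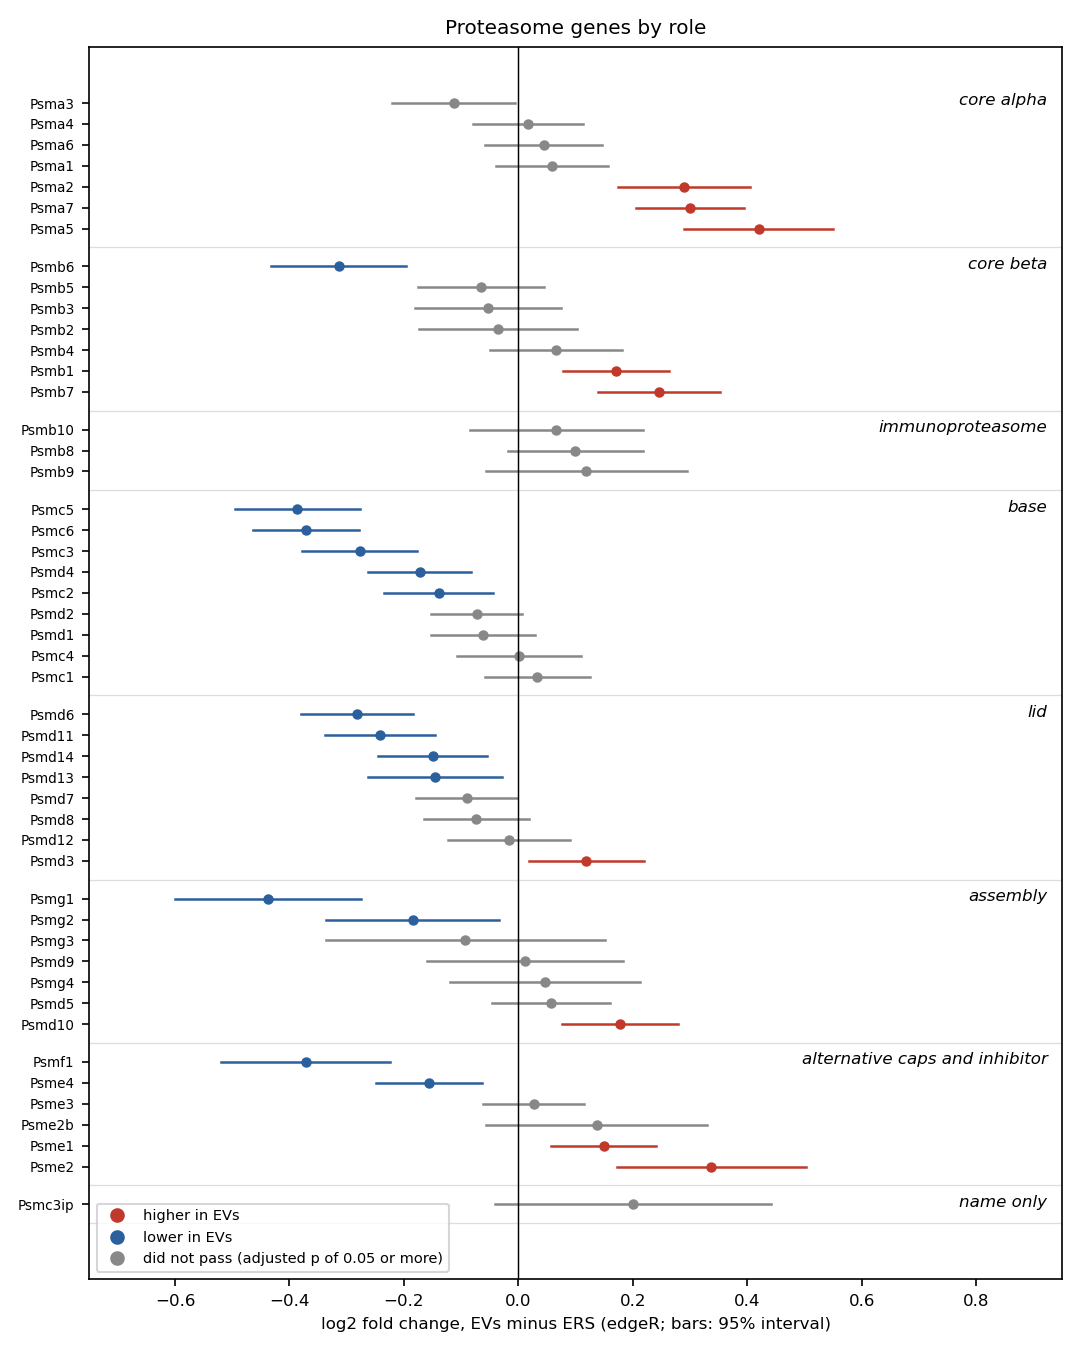
Log2 fold change of each Psm gene tested, EVs minus ERS, with its 95% confidence interval, grouped by role. Of the 14 standard core subunits 5 are called higher and 1 lower, and of the 17 base and lid subunits 1 higher and 9 lower. The extremes are Psma5 (0.42) and Psmg1 (-0.44).

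Among the alpha subunits, which form the outer rings and the gate of the core, Psma2, Psma5 and Psma7 rose and none fell. Psma5, which lies on chromosome 3 from 108256926 to 108279974 (mouse build GRCm38, plus strand), was at 52.7, 53.4 and 46.8 CPM in ERS and at 73.5, 64.2 and 66.8 in EVs. Every EVs library was above every ERS library. Its log2 fold change was 0.42 (SE 0.063), a 1.34-fold higher level, with adjusted p = 5.34e-06. Psma7 stood at 108, 113 and 105 CPM in ERS and at 132, 132 and 138 in EVs, without overlap. It rose 1.23-fold (log2 fold change 0.30, SE 0.046, adjusted p = 6.32e-06). Psma2 rose 1.22-fold, from 70.3 ± 5.1 to 85.9 ± 3.3 CPM (SD, n = 3, adjusted p = 0.000125). The span of Psma2 overlaps AW209491 on the same strand, a gene with 27.0% as many counts that fell, with a log2 fold change of -0.55.

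The other 4 alpha subunits did not pass the test. Psma3 had the lowest log2 fold change of the alpha subunits. It was at 93.7, 103 and 94.0 CPM in ERS and at 84.8, 90.1 and 93.7 in EVs, with the groups just apart (log2 fold change -0.11, SE 0.052, adjusted p = 0.0797). It passed when ERS replicate 1 or ERS replicate 3 was left out (adjusted p = 0.0468 and 0.0375). Psma1, Psma4 and Psma6 had log2 fold changes of 0.06, 0.02 and 0.04.

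The standard beta subunits include the 3 that cut peptide bonds. They are Psmb6 (beta1, cleaving after acidic residues), Psmb7 (beta2, after basic residues) and Psmb5 (beta5, after hydrophobic residues), and they did not move together. Psmb6 was at 92.8, 87.8 and 78.3 CPM in ERS and at 68.9, 71.2 and 68.2 in EVs. All EVs values were below all ERS values, a 1.24-fold lower level (log2 fold change -0.31, SE 0.057, adjusted p = 6.52e-05). Psmb6 lies on chromosome 11 from 70525367 to 70527858 and was the only standard core subunit that fell.

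Psmb7 was at 137, 159.9 and 154 CPM in ERS and at 188, 178 and 170.3 in EVs, again without overlap. It rose 1.19-fold (log2 fold change 0.25, SE 0.052, adjusted p = 0.00033). Its span overlaps Nek6 on the opposite strand, which held 83.1% as many counts and fell, with a log2 fold change of -0.25. No source used here says whether counting used the strand, and reads of the overlapping stretch cannot be assigned with certainty. Psmb5 was at 76.0, 80.3 and 71.8 CPM in ERS and at 73.6, 74.0 and 70.4 in EVs, and the groups overlapped (log2 fold change -0.07, 95% interval -0.18 to 0.04, adjusted p = 0.333).

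The remaining beta subunits have no proteolytic site of their own in the mature particle. Psmb1 rose 1.13-fold, from 139.6 ± 6.35 to 157 ± 2.85 CPM (SD, n = 3, adjusted p = 0.00273). Psmb2, Psmb3 and Psmb4 had log2 fold changes of -0.04, -0.05 and 0.06, with overlapping groups, and did not pass. Psmb5 passed as lower only when the trend of fold change with gene length was removed (log2 fold change -0.23, adjusted p = 0.00058), and with that removal and a replicate block Psmb2 did as well (-0.15, adjusted p = 0.0413).

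Cells under interferon replace the catalytic subunits with Psmb8, Psmb9 and Psmb10, giving the immunoproteasome, whose cleavage pattern favours peptides for MHC class I. None of these 3 genes passed the test. Psmb8, which takes the place of Psmb5, was at 51.2, 53.3 and 49.2 CPM in ERS and at 56.4, 54.5 and 53.8 in EVs. The groups did not overlap (log2 fold change 0.10, 95% interval -0.02 to 0.22, adjusted p = 0.161), and Psmb8 passed when libraries were scaled by their totals alone (adjusted p = 0.0468) or when only protein-coding genes were tested (0.0424).

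Psmb9, which takes the place of Psmb6, was at 19.1, 17.9 and 18.0 CPM in ERS and at 21.01, 19.7 and 18.9 in EVs (log2 fold change 0.12, 95% interval -0.06 to 0.29, adjusted p = 0.269). It overlaps Tap1 on the opposite strand, which held 422% as many counts and fell. Psmb10, which takes the place of Psmb7, was at 36.0, 33.5 and 30.8 CPM in ERS and at 36.7, 32.8 and 35.4 in EVs (log2 fold change 0.07, 95% interval -0.08 to 0.22, adjusted p = 0.487). The intervals of all 3 reach below 0 and up to 0.29. The summed level of the 3 genes was 103 ± 4.37 CPM in ERS and 109.7 ± 3.79 in EVs (SD, n = 3). The groups did not overlap in that sum, which carries no test. Among the leukocyte markers Cd74 was lower in EVs, at 108 CPM against 164, and Cd68 higher, at 5.36 against 3.84. Their part in these values was not tested.

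Levels of different genes were compared per length, as RPKM (CPM per 1000 bases of the principal transcript, the longest where a gene has several). In ERS the 3 immunoproteasome genes lay between 13.5 (Psmb9) and 31.5 RPKM (Psmb8), and the 7 standard beta genes between 65.0 (Psmb2) and 129.8 RPKM (Psmb7). The ratio of Psmb8 to Psmb5 in RPKM was 0.372, 0.366 and 0.379 in the ERS libraries and 0.423, 0.406 and 0.422 in the EVs libraries. The ratio of Psmb9 to Psmb6 was 0.121, 0.120 and 0.135 in ERS and 0.180, 0.163 and 0.164 in EVs. In both pairs every EVs library had the higher ratio. The ratio of Psmb10 to Psmb7 was 0.232, 0.185 and 0.177 in ERS and 0.173, 0.164 and 0.184 in EVs, with overlap.

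Exact two-sided permutation tests of these ratios over the libraries gave p = 0.1 for the first 2 pairs and 0.2 for the third, or 0.15, 0.15 and 0.2 adjusted over the 3 pairs. With 3 libraries against 3 the smallest p that can be reached is 0.1, so no ratio could pass 0.05. In the pair of Psmb9 and Psmb6 the denominator fell, from 108 to 87.0 RPKM, and the numerator was at 13.5 in ERS and 14.7 in EVs. With the merged exon length deposited for each gene the mean ratios in ERS were 0.221, 0.109 and 0.449, so the level of a ratio depends on the length used, while its relative difference between the groups does not.

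**Figure D4:**
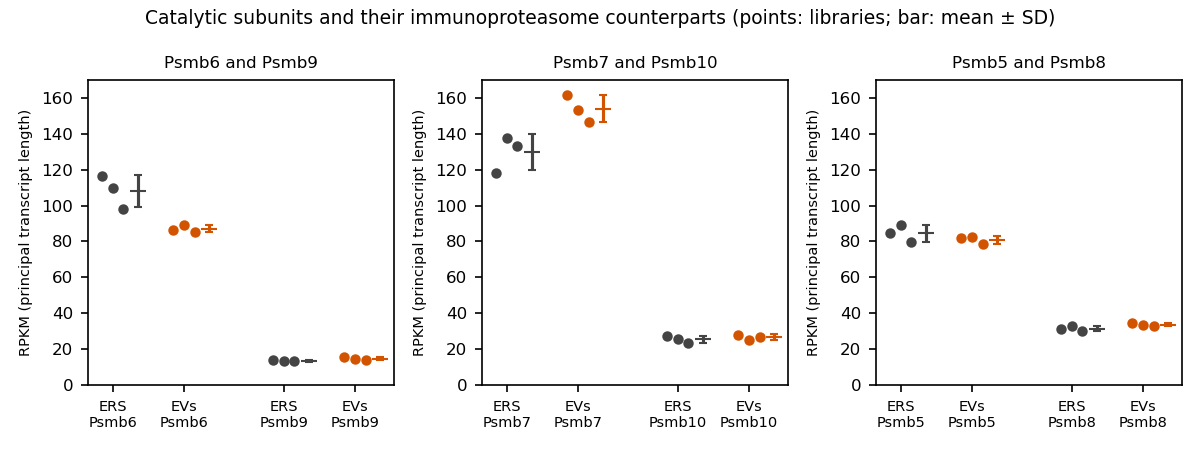
RPKM by principal transcript length of each standard catalytic subunit and the immunoproteasome subunit that replaces it, 1 panel per pair, with points for the libraries of ERS and EVs and bars for the mean ± SD. Each standard subunit lies far above its counterpart, and Psmb6 has means of 108 RPKM in ERS and 87.0 in EVs while Psmb9 has 13.5 and 14.7.

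The 2 tissue-specific core genes were nearly silent. The testis alpha subunit Psma8 had 1 count in all 6 libraries together. The thymus beta subunit Psmb11 had 2, 0 and 2 counts in ERS and 4, 0 and 10 in EVs. Neither was tested.

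In the base, the ATPase ring Psmc1 to Psmc6 unfolds the substrate. Of these 6 genes 4 fell (24.7% of all genes tested and 36.2% of those of like level did), none rose, and Psmc1 (log2 fold change 0.03) and Psmc4 (0.00) did not pass. Psmc5, on chromosome 11 from 106256154 to 106263120, was at 113, 111 and 99.9 CPM in ERS and at 79.3, 86.1 and 82.1 in EVs. The groups were well apart, and Psmc5 fell by 0.39 on the log2 scale (SE 0.053, adjusted p = 1.27e-06), a 1.31-fold lower level. Psmc6, on chromosome 14 from 45329788 to 45349705, was at 221, 243 and 244 CPM in ERS and at 188, 175 and 184 in EVs. It fell by 0.37 (SE 0.045, adjusted p = 2.19e-07).

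Psmc3 fell 1.21-fold, from 114 ± 6.4 to 93.9 ± 0.838 CPM (SD, n = 3, adjusted p = 4.02e-05). It overlaps Slc39a13 on the opposite strand, which held 32.2% as many counts and also fell (log2 fold change -0.38). Psmc2 fell from 106 ± 2.24 to 96.5 ± 2.32 CPM (adjusted p = 0.0147), a call that was lost without EVs replicate 2 (adjusted p = 0.0749). Psmc1, which had the highest log2 fold change in the base, was at 119, 126 and 125 CPM in ERS and at 129, 125 and 126 in EVs, with overlap.

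The base also holds the scaffolds Psmd1 (Rpn2) and Psmd2 (Rpn1) and the ubiquitin receptor Psmd4 (Rpn10). Psmd4 was at 160.1, 161 and 160.3 CPM in ERS and at 139.9, 138 and 149 in EVs. It fell 1.13-fold (log2 fold change -0.17, SE 0.044, adjusted p = 0.00206). Psmd2, at 334 ± 7.26 CPM in ERS the most highly counted Psm gene, was at 318 ± 6.71 in EVs and did not pass (adjusted p = 0.124), except without ERS replicate 3 (0.0391). Psmd1 did not pass either, with a log2 fold change of -0.06, although for both genes the 2 groups did not overlap.

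Of the 8 lid genes with the Psm prefix 4 fell and 1 rose, beside 24.7% lower among all genes tested and 36.2% lower among the protein-coding genes of like level. Psmd6 (Rpn7) was at 95.03, 94.2 and 97.0 CPM in ERS and at 77.3, 80.6 and 77.5 in EVs. All EVs values were below all ERS values, and Psmd6 fell by 0.28 on the log2 scale (SE 0.048, adjusted p = 2.52e-05). Psmd11 (Rpn6), which clamps the lid to the core, fell 1.18-fold, from 112 ± 3.92 to 94.7 ± 2.09 CPM (SD, n = 3, adjusted p = 0.000131). Psmd14 (Rpn11), the deubiquitinase that releases the ubiquitin chain, fell 1.11-fold, from 128 ± 5.61 to 115 ± 2.48 CPM (adjusted p = 0.00936).

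The 2 other calls among these lid genes were close to the threshold and were lost when any of several libraries was left out. Psmd3 (Rpn3) was at 114, 107 and 102 CPM in ERS and at 116, 115 and 121 in EVs. It was the only base or lid gene with the Psm prefix that rose (log2 fold change 0.12, SE 0.049, adjusted p = 0.0486). That call was lost without ERS replicate 2 (adjusted p = 0.154), ERS replicate 3 (0.207) or any one EVs replicate (0.0921, 0.0823 and 0.211). Psmd13 (Rpn9) fell from 63.7 ± 3.17 to 57.6 ± 2.47 CPM (SD, n = 3, adjusted p = 0.0387), a call lost without ERS replicate 2 (0.157), EVs replicate 2 (0.0664) or EVs replicate 3 (0.186). Psmd13 overlaps Sirt3 on the opposite strand, which held 30.1% as many counts and also fell (log2 fold change -0.27). It overlaps the pseudogene Gm15542 on the same strand as well, which held 11.4% as many counts and rose (0.61).

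Psmd7, Psmd8 and Psmd12 did not pass, with log2 fold changes of -0.09, -0.07 and -0.02. Without ERS replicate 3, Psmd7 (adjusted p = 0.0392) and Psmd8 (0.00921) passed as lower. Without the library ERS replicate 3, then, Psmd2, Psmd7 and Psmd8 also passed as lower, and Psmd3 no longer passed.

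Subunits have to be put together, and the assembly factors Psmg1 to Psmg4 build the alpha ring while Psmd5, Psmd9 and Psmd10 hold the ATPases of the base until they join. Of these 7 genes 1 rose, 2 fell and 4 did not pass, where 47.4% of all genes tested and 62.8% of the protein-coding genes of like level passed. Psmg1 (PAC1), on chromosome 16 from 95979933 to 95990960, was at 31.7, 30.3 and 28.7 CPM in ERS and at 23.5, 20.5 and 22.9 in EVs. The groups were apart, and its 1.35-fold lower level was the largest fold difference of any Psm gene tested (log2 fold change -0.44, SE 0.079, adjusted p = 5.79e-05). Its partner Psmg2 (PAC2) was at 28.7, 27.8 and 27.9 CPM in ERS and at 24.3, 24.3 and 25.6 in EVs. It fell by 0.18 (SE 0.074, adjusted p = 0.0416), but the call was lost whichever library was left out (adjusted p = 0.0903, 0.0558 and 0.0562 without ERS replicate 1, 2 or 3, and 0.102, 0.0997 and 0.0518 without EVs replicate 1, 2 or 3).

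The second pair of alpha-ring chaperones did not pass. Psmg3 (PAC3) was at 9.78, 9.15 and 9.43 CPM in ERS and at 8.25, 8.41 and 9.90 in EVs (log2 fold change -0.09, 95% interval -0.34 to 0.15, adjusted p = 0.554). Psmg4 (PAC4) was at 21.3, 23.1 and 21.1 CPM in ERS and at 22.7, 23.1 and 21.7 in EVs (log2 fold change 0.05, 95% interval -0.12 to 0.21, adjusted p = 0.667). For both genes the groups overlapped.

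Among the chaperones of the base, Psmd10 (gankyrin, which binds Psmc4) was at 69.8, 71.5 and 70.1 CPM in ERS and at 78.9, 80.0 and 80.2 in EVs. It rose 1.13-fold (log2 fold change 0.18, SE 0.049, adjusted p = 0.00415), and the call was lost when the trend with gene length was removed (0.09, adjusted p = 0.124). Psmd9 (p27, which binds Psmc6 and Psmc3) was at 21.3, 20.1 and 19.3 CPM in ERS and at 20.5, 19.7 and 20.96 in EVs, and did not pass (log2 fold change 0.01, adjusted p = 0.921). Psmd5 (S5b, which binds Psmc2) was at 97.0, 95.6 and 87.9 CPM in ERS and at 93.9, 98.9 and 98.8 in EVs. It did not pass (log2 fold change 0.06, adjusted p = 0.378), except with the length trend removed (0.12, adjusted p = 0.0416).

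The core can also take caps that do not need ubiquitin. Psme1 and Psme2 form PA28 alpha-beta, which interferon induces, Psme3 forms the nuclear PA28 gamma, Psme4 is PA200 and Psmf1 is PI31, described as an inhibitor of the core. Psme2 was at 63.4, 73.1 and 51.1 CPM in ERS and at 80.5, 80.9 and 75.4 in EVs. It rose 1.26-fold (log2 fold change 0.34, SE 0.080, adjusted p = 0.00108), with the ERS libraries spread more widely than the EVs libraries. Without ERS replicate 3, the lowest, its log2 fold change was 0.21 (adjusted p = 0.00577), and DESeq2 gave an adjusted p of 0.0496 over all 6 libraries. The Psme2 transcript is 99.4% identical to Psme2b over 794 aligned bases, so reads may be split between the genes, and both are uncertain. Psme2b was at 37.8 ± 3.17 CPM in ERS and 41.5 ± 7.67 in EVs (SD, n = 3, adjusted p = 0.243), and passed as higher without EVs replicate 2 (0.0179).

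Psme1 rose 1.11-fold, from 131 ± 4.7 to 145 ± 2.36 CPM (SD, n = 3, adjusted p = 0.00723), a call lost without EVs replicate 2 (0.0553). Psme4 fell 1.11-fold, from 192 ± 7.3 to 172 ± 7.82 CPM (adjusted p = 0.00568), a call lost without EVs replicate 3 (0.066) and with the length trend removed (0.104). Psmf1, on chromosome 2 from 151715812 to 151744186, was at 40.8, 39.5 and 38.5 CPM in ERS and at 33.0, 30.9 and 27.9 in EVs. It fell by 0.37 on the log2 scale (SE 0.072, adjusted p = 0.000127), and its groups were apart. Psme3 had a log2 fold change of 0.03 and did not pass. Psmc3ip, the gene with only the name in common, was at 8.04 ± 0.331 CPM in ERS and 9.24 ± 0.151 in EVs and did not pass (adjusted p = 0.167).

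Some proteasome proteins do not carry the Psm prefix, and 2 of them, Pomp and Uchl5, moved further than any Psm gene. Of 11 such partners tested, 3 rose, 5 fell and 3 did not pass, beside 22.6% higher and 24.7% lower among all genes tested. Pomp, the chaperone that matures the core and is degraded by it, was at 46.7, 45.5 and 41.2 CPM in ERS and at 72.7, 77.2 and 74.3 in EVs. All EVs libraries were far above all ERS libraries, a 1.68-fold rise (log2 fold change 0.75, SE 0.059, adjusted p = 1.06e-10). Uchl5, a deubiquitinase of the cap, was at 37.0, 44.3 and 41.7 CPM in ERS and at 26.8, 26.3 and 24.5 in EVs. It fell 1.58-fold (log2 fold change -0.66, SE 0.076, adjusted p = 7.81e-08).

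Adrm1 (Rpn13), the ubiquitin receptor that holds Uchl5, fell as well (log2 fold change -0.20, adjusted p = 0.0152), a call lost without ERS replicate 1 (0.162), EVs replicate 1 (0.0996) or EVs replicate 3 (0.0503). The other deubiquitinase of the cap, Usp14, rose (0.13, adjusted p = 0.0159), a call lost without EVs replicate 1 (0.0689) or EVs replicate 3 (0.0703). The small lid subunit Sem1 rose (0.26, adjusted p = 0.000734). Akirin2, which takes proteasomes into the nucleus, fell (-0.42, adjusted p = 2.47e-05), as did the cap-bound redoxin Txnl1 (-0.16, adjusted p = 0.00513). The scaffold Ecpas fell (-0.11, adjusted p = 0.0397), a call lost without ERS replicate 3 (0.114), EVs replicate 2 (0.165) or EVs replicate 3 (0.106). Zfand5, Ube3c and Fbxo7 did not pass, except Fbxo7 as lower without ERS replicate 1 (adjusted p = 0.0481).

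When proteasome activity is short, transcription of its subunits is raised by Nfe2l1 (NRF1, also TCF11), a factor held in the endoplasmic reticulum membrane that must be drawn out, stripped of its sugars by Ngly1 and cut by Ddi2 before it acts with small Maf proteins on antioxidant response elements. Of 8 regulators on this list 2 rose, 4 fell and 2 did not pass (22.6% and 24.7% of all genes tested were higher and lower). Nfe2l1 was at 653, 637 and 631 CPM in ERS and at 435, 438 and 428 in EVs. The groups were far apart, and its transcript fell 1.48-fold (log2 fold change -0.56, SE 0.036, adjusted p = 1.95e-12). The small Maf gene Mafk was at 52.7, 46.5 and 50.1 CPM in ERS and at 40.2, 36.4 and 36.4 in EVs, and fell 1.32-fold (log2 fold change -0.40, SE 0.066, adjusted p = 1.88e-05).

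Ngly1 fell (log2 fold change -0.41, adjusted p = 0.00182), and so did Mafg (-0.18, adjusted p = 0.00233). The stress factor Nfe2l2 rose (0.17, adjusted p = 0.00514), a call lost without EVs replicate 3 (0.0588), and the small Maf gene Maff rose (0.23, adjusted p = 0.00793). Ddi2 stood at 85.0 ± 2.83 CPM in ERS and 86.0 ± 2.66 in EVs (SD, n = 3) and did not pass, and neither did Nfe2l3, which had about 1 CPM in every library. These are transcript levels, and processing of the Nfe2l1 protein was not measured.

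Promoter sequence was read from RefSeq on the GRCm38.p6 build, where 42 of the 50 genes had an entry. The core of the antioxidant response element, TGACNNNGC on either strand, was looked for in the 250 bases before the gene start. It occurred in 5 of the 42 (11.9%), namely Psmb5, Psmb6, Psmc6, Psmd9 and Psmd12, and in 11.5% of all 27025 genes with a promoter entry. Among those 42, it was present in 2 of the 12 genes that fell and in none of the 6 that rose. The 4 stretches shown are those that lie upstream of the deposited gene span, each read along the gene's strand with the motif match in capitals. They let the genes that fell (Psmb6 and Psmc6) be set beside those that did not pass (Psmb5 and Psmd12).
Psmb6: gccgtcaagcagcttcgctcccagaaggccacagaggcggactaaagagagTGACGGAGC
Psmc6: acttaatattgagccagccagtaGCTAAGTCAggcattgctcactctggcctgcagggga
Psmb5: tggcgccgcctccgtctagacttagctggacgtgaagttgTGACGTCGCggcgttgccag
Psmd12: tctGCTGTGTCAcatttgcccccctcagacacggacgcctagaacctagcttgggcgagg

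The stretches lie at chr11:70525297-70525356 (Psmb6, plus strand), chr14:45329574-45329633 (Psmc6, plus strand), chr14:54618023-54618082 (Psmb5, minus strand) and chr11:107479278-107479337 (Psmd12, plus strand). In Psmb6 and Psmb5 the match reads along the gene, and in Psmc6 and Psmd12 it reads on the other strand, so that the reverse complement is printed. The match in Psmb6 begins 9 bases before the RefSeq start and that in Psmb5 47 bases before it, while those in Psmc6 and Psmd12 begin 227 and 247 bases before it. The CCAAT box, searched on both strands, was present in 15 of the 42 genes (35.7%) and in 37.5% of all genes. The interferon-type motif, GAAA, NN and GAAA in a row on either strand, occurred in Psmb3, Psmd4 and Psmd9 (7.14%), against 3.46% of all genes. A match is a string of letters in this window and not a binding site.

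Ubiquitin itself is made as a fusion or a chain that is then cut. Of 4 ubiquitin and activating enzyme genes given here, 1 rose, 2 fell and 1 did not pass, where 47.4% of all genes tested passed. Ubb, a polyubiquitin gene that responds to stress, was at 405, 379 and 379.7 CPM in ERS and at 595, 557 and 552 in EVs. The groups were far apart, a 1.46-fold rise (log2 fold change 0.55, SE 0.040, adjusted p = 3.05e-11).

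Rps27a, which fuses ubiquitin to a ribosomal protein, was at 325, 338 and 295 CPM in ERS and at 158, 166 and 247 in EVs. EVs replicate 3 lay above the other EVs libraries and below every ERS library. Rps27a fell 1.68-fold (log2 fold change -0.75, SE 0.097, adjusted p = 5.7e-07). The ubiquitin-activating enzyme Uba1 did not pass (0.02), and its relative Uba6 fell (-0.22, adjusted p = 0.00357).

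Shuttle factors carry ubiquitinated proteins to the cap. Rad23b was at 330.1, 339.8 and 342 CPM in ERS and at 251.6, 247 and 247 in EVs, a 1.36-fold fall (log2 fold change -0.44, SE 0.038, adjusted p = 7.11e-10). Ubqln1 was at 184, 180.3 and 181 CPM in ERS and at 143, 151 and 144 in EVs, a fall by 0.32 on the log2 scale ( SE 0.042, adjusted p = 8.94e-07). In both genes every EVs library was below every ERS library. Ubqln4 fell (log2 fold change -0.20, adjusted p = 0.000876), and Ubqln2 had 0 counts in all libraries. The 3 shuttle factors given here that were tested all fell, beside 24.7% lower among all genes tested. Groups that did not overlap, in either direction, were found for 54.5% of all genes tested.

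**Figure D5:**
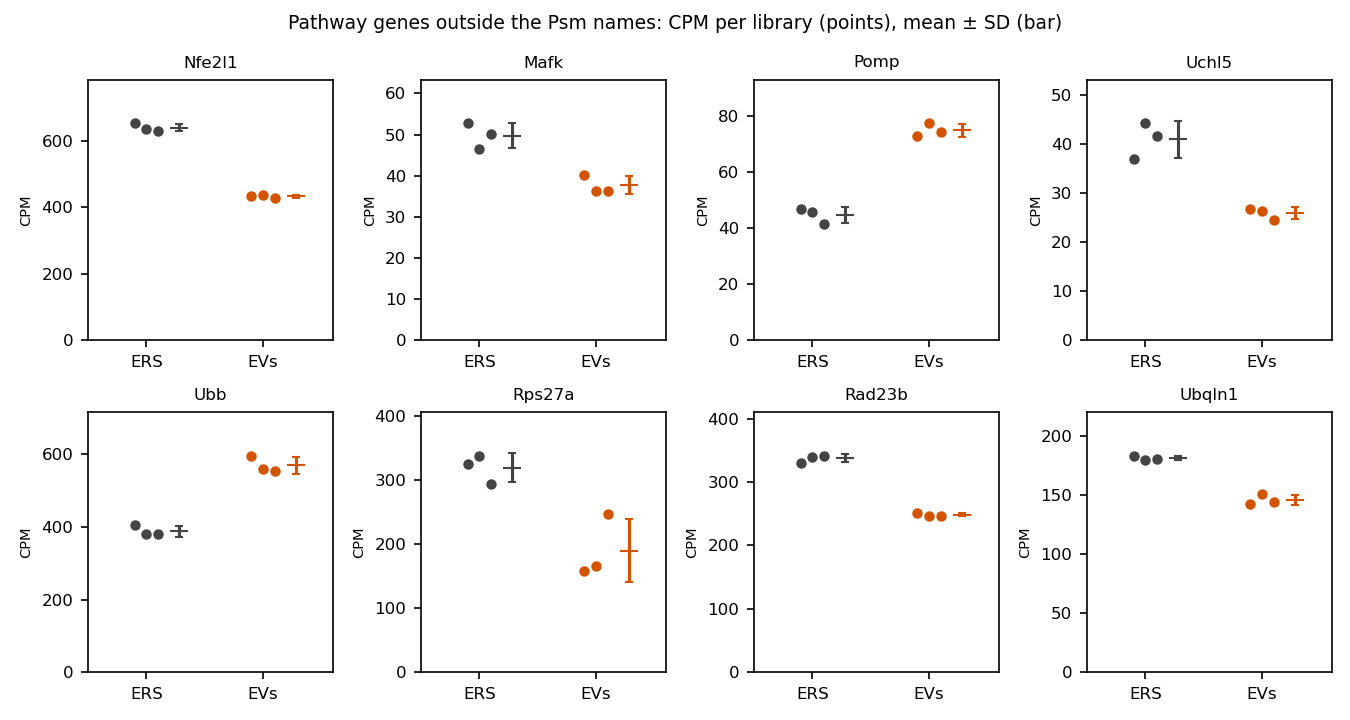
CPM of 8 genes around the proteasome that lack the Psm prefix (Nfe2l1, Mafk, Pomp, Uchl5, Ubb, Rps27a, Rad23b and Ubqln1), 1 panel per gene, with points for the libraries of ERS and EVs and bars for the mean ± SD. Pomp and Ubb lie higher in all EVs libraries and the other 6 genes lower, and Rps27a has its EVs point at 247 CPM apart from those at 158 and 166.

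Genes that usually accompany the immunoproteasome did not share a direction. Of 7 given here, 3 rose, 2 fell and 2 did not pass, where 47.4% of all genes tested passed. Tapbp, which holds MHC class I at the peptide transporter, was at 61.8, 61.8 and 59.6 CPM in ERS and at 83.9, 87.8 and 88.4 in EVs. It rose 1.42-fold without overlap (log2 fold change 0.50, SE 0.051, adjusted p = 8.89e-09). Tap1, one chain of the transporter and the neighbour of Psmb9, was at 94.1, 89.7 and 85.3 CPM in ERS and at 70.9, 69.3 and 72.9 in EVs. It fell 1.26-fold (log2 fold change -0.34, SE 0.051, adjusted p = 6.75e-06).

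Tap2, the other chain, fell (log2 fold change -0.27, adjusted p = 0.0076), a call lost without ERS replicate 1 (0.0938). Nlrc5, the activator of MHC class I genes, rose (0.17, adjusted p = 0.0047), a call lost without ERS replicate 2 (0.0758). B2m, the MHC class I light chain, rose (0.16, adjusted p = 0.00149), but had a log2 fold change of -0.01 once the trend with gene length was removed. Irf1 (0.00) and the trimming peptidase Erap1 (0.06) did not pass.

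Fold changes moved with gene length in these libraries. The median log2 fold change of all genes tested was 0.25 for merged exon lengths up to 1000 bases and -0.07 for those over 5000 bases. The median length was 2335 bases in the 14 standard core genes and 2820 bases in the 17 cap genes. With the length trend removed, 5 core genes were higher and 2 lower, and 1 cap gene was higher and 8 lower.

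Levels in ERS differed between the roles. By principal transcript length the median was 84.9 RPKM for the alpha subunits, 107 for the beta subunits, 81.9 for the base and 59.5 for the lid. It was 25.5 for the immunoproteasome genes, 26.6 for the assembly factors and 53.5 for the alternative caps and inhibitor. Within the assembly factors the level ran from 7.78 RPKM for Psmd9 to 49.3 for Psmd10, and within the lid from 32.0 for Psmd13 to 156.6 for Psmd8. With the merged exon length the medians of the alpha and beta subunits came to 35.4 and 46.1 RPKM and that of the base to 63.9, so the order of core and base depends on the length used.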

How the data were processed

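The authors deposited 1 table of raw counts per gene, with 1 column per sample and no normalization. Per the labels' protocols and the submitters' processing notes, reads were aligned with HISAT2 2.2.1 and counted with featureCounts 2.0.6. How strand and multiply placed reads were handled is not given in the sources used here. Other values in the deposited table are each gene's position and its length in bases. The build named in the notes is mm39, but start and end equal GRCm38 (GENCODE M21) for 53499 of 54409 shared gene IDs (98.33%) and for 48 of the 50 Psm genes, so coordinates are read as GRCm38.

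Genes passing edgeR's filterByExpr (16844 of 28789 with a count) were tested, EVs against ERS, with edgeR 4.0.16 (TMM scaling, quasi-likelihood test, two-sided, Benjamini-Hochberg over all genes tested) in R 4.3.3. CPM use the TMM-scaled library size. RPKM divide CPM by the length of the principal GENCODE transcript, the longest where a gene has several. That length was chosen after seeing the data. The procedure was also run on simulated counts. Few genes were changed there and no trend with gene length was put in, unlike in these data. That run therefore gives no rate of false calls for them. Samples with the same replicate number did not deviate together (r = -0.04, 0.02 and -0.01). That gave no sign of pairing by number, but it cannot show that the samples were prepared separately. The Psm genes and the lists of other genes were chosen with earlier results of these data known. Values in every library are given for the catalytic subunits, the assembly factors, the highest and lowest gene of each role, and from each list the 2 genes with the smallest adjusted p, Nfe2l1 among them. Further genes given per library were chosen after their values were seen. Alternatives were limma-voom (limma 3.58.1), DESeq2 1.42.0, other scalings, filters and thresholds, removal of the length trend, a replicate block and leaving out each library. The name pattern also matched 4 pseudogene rows with 13 counts in all, left out as not protein-coding. Some genes of the other lists are not reported here.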

Additional observations from a re-analysis of the deposited data

How the results depend on the processing

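Of the 23 Psm genes called, 15 passed in the same direction under all 17 alternatives computed gene by gene, 8 were lost under at least 1, and 9 others passed under at least 1. Of the 25 called genes of the other lists, cell type markers aside, 18 were kept under all 17. Among the called genes only B2m changed sign, to -0.012 with the length trend removed and -0.011 with a replicate block as well. The median log2 fold change of the Psm genes, -0.01, became 0.032 with library size alone, 0.029 with protein-coding genes only, -0.042 with the length trend removed and -0.047 with a replicate block added to that. Leaving out 1 library gave -0.054 to 0.0074. A minimum of 0.322 on the log2 fold change left 5022 genes called in all and 2 Psm genes higher (Psma5 and Psme2) and 4 lower (Psmc5, Psmc6, Psmg1 and Psmf1). Without the members that overlap a well counted gene, a choice made after seeing the data, 7 were higher and 12 lower; Psma2 and Psmb7 are among those left out, which leaves 3 of the core calls higher. With the replicate block 7737 genes were called in all, 8 Psm genes higher and 12 lower: Psmd3, Psmd13 and Psmg2 lost their calls (adjusted p = 0.0751, 0.0524 and 0.0695), as did Ecpas (0.0774). With library size alone Psmc2, Psmd13, Psmd14, Psmg2, Adrm1 and Ecpas lost their calls, without the filter Psmd3, Psmg2 and Usp14 did, with a stricter filter Psmd13, Psmg2 and Ecpas did, with protein-coding genes only Psmc2, Psmd13, Psmg2 and Ecpas did, and with the length trend removed Psmc2, Psmd13, Psmd10, Psme4 and Ecpas did; their adjusted p-values there ran from 0.051 to 0.540. Before any minimum on the fold change, the standard core had 5 genes higher in each setting that kept all its genes. It had 1 to 3 lower, with 3 when the length trend was removed and a replicate block added. Its median log2 fold change ran from 0.019 (length trend removed) to 0.092 (library size alone). The base and lid had 6 (library size alone) to 12 (without ERS replicate 3) lower. Among the called cell type markers Cd68 lost its call under 8 of the 17, with an adjusted p of 0.0612 by DESeq2. The causes were not tested. At these depths the common biological coefficient of variation was 6.05%, and the least counted Psm gene tested, Psmc3ip, had a 95% interval of -0.04 to 0.44.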
